A study of Rattus norvegicus with 6 samples.

Results

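The genes described here are 8 CC chemokine genes (Ccl2, Ccl3, Ccl4, Ccl5, Ccl6, Ccl7, Ccl9 and Ccl21) and Pf4, which encodes platelet factor 4, a chemokine of the CXC family. They were chosen by name, and all 9 were found among 16383 genes with values. ScRNA-seq with the BD Rhapsody system, which tags each captured mRNA molecule with a unique molecular identifier (UMI), was performed on digested pieces of lung tissue from 6 Sprague Dawley rats. The 3 BLM-treated rats had received 1 dose of bleomycin (BLM, 5 mg/kg), a drug that injures the lung and is used to model fibrosis, through the trachea. The 3 control rats had received saline by the same route, and all lungs were harvested on day 28. In total 25547 cells were profiled, between 2568 and 7481 per rat, with between 3860028 and 16598959 UMIs per rat and a median of 1066 to 1840 UMIs per cell.

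Chemokines are small secreted proteins that draw leukocytes along a gradient by binding to receptors on their surface. Ccl2 and Ccl7 are ligands of Ccr2 and recruit monocytes, Ccl3, Ccl4 and Ccl5 recruit macrophages, T cells and NK cells, and Ccl6 and Ccl9 are rodent ligands of Ccr1. Ccl21 binds Ccr7 and guides dendritic cells into lymphatic vessels, whereas Pf4 was first known from the granules of platelets and is also made by some macrophages.

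In the RefSeq annotation of the rat genome (GRCr8), Ccl2 and Ccl7 are direct neighbours on chromosome 10, and the run Ccl5, Ccl9, Ccl6, Ccl3 and Ccl4 lies in that order on the same chromosome. Ccl21 lies on chromosome 5 and Pf4 on chromosome 14, between Cxcl3 and Ppbp. RefSeq promoter windows, from 250 bases before to 50 after the annotated start, matched 4 of the 9 genes. Ccl6 and Ccl9 are shown because alveolar macrophage-like cells held most UMIs of both, and Ccl7 because its UMIs increased most on the log2 scale in alveolar macrophage-like cells. All sequences run 5′ to 3′ on the gene's strand and end at the base before the annotated start. In Ccl6 (chr10:68883367-68883510, minus strand) and Ccl9 (chr10:68868878-68868952, minus strand), capitals mark the best local alignment between both upstream stretches. In Ccl7 (chr10:67513975-67514094, plus strand), capitals mark matches to TGANTCA, a pattern that leaves the centre of the AP-1 site free, so that a match need not be that site. They also mark TATAAA, the letters of the box from which transcription is often placed.
Ccl6: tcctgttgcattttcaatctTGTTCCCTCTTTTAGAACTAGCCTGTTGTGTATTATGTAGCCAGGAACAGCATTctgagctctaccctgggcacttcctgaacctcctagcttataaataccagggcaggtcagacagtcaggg
Ccl9: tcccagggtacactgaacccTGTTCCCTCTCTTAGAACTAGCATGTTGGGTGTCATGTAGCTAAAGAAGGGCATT
Ccl7: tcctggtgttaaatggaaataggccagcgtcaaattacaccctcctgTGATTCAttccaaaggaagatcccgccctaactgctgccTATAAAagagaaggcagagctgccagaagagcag
The aligned stretch held 54 bases of Ccl6 and 55 of Ccl9, of which 45 were identical, 9 differed and 1 was a gap. It ended 70 bases before the annotated start of Ccl6 and directly at that of Ccl9. Both motifs were searched on both strands of the 300-base windows, with position 0 at the annotated start and a position given for the leftmost base of a match. TATAAA was found on the sense strand at -32 in Ccl6, at -34 in Ccl7 and at 39 in Ccl9, where overlapping and more distant antisense matches stood at 37 and -165. TGANTCA was found only in Ccl7, at -73, where a match on 1 strand is also a match on the other. Of all 33469 promoter windows of this length, 14.2% held TATAAA and 7.33% TGANTCA.

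Cells were grouped into 42 clusters without using any of 53 chemokine and chemokine receptor genes, so that the 9 genes did not shape the classes they are compared in. Clusters were given 24 cell class names from marker genes, with "-like" added, and 2 clusters with 1355 cells stayed unnamed. In alveolar macrophage-like cells, control and BLM cells lay mostly in different clusters. Clusters 0, 1, 17 and 30 held most control cells, and clusters 5 (led by Vsig4, Trem2 and Pparg) and 8 (led by Il23a, Olr1 and Il1a) held most BLM cells. Of 25232 distinct cell labels, 314 occurred in more than 1 library. RNA free in the suspension can place UMIs in cells that do not make them. With each cell thinned to 500 UMIs and shallower cells left out, Ccl6 was found in 91.7% of control alveolar macrophage-like cells and in 9.42% of control B cell-like cells (means of 3 rats), whose median depths before thinning were 2997 and 652 UMIs. For Ccl2, Ccl7, Ccl9, Ccl21 and Pf4, that share in B cell-like cells was between 0% and 1.77% in either group. Ccl3 was found in 13.5% and 17.4% of control and BLM B cell-like cells, and in 0% and 1.33% of fibroblast-like cells.

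The 9 genes fell into 4 patterns by the class that held their UMIs. Alveolar macrophage-like cells, the resident phagocytes of the air space, were 23.8% of all cells and held 80.9% of Ccl6 UMIs and 78.8% of Ccl9 UMIs. Natural killer (NK) cell-like cells held 96.7% of Ccl5 UMIs, and lymphatic endothelial-like cells held 95.8% of Ccl21 UMIs although these were only 105 cells. Ccl3 and Ccl4 were shared: alveolar macrophage-like cells held 45.0% of Ccl3 and 40.3% of Ccl4, and NK cell-like cells 5.53% and 34.3%. Neutrophil-like and Spn monocyte-like cells (monocytes with Spn, which patrol vessels) held a further 11.6% and 10.7% of Ccl3. Such shares also grow with the number and depth of the cells in a class. Thinned to 500 UMIs (means of 3 rats), Ccl3 was found in 16.9% of control and 37.1% of BLM alveolar macrophage-like cells. This was 37.7% and 58.1% in neutrophil-like and 51.4% and 67.5% in Spn monocyte-like cells. Ccl4 was found in 3.26% and 14.3% of alveolar macrophage-like and 45.9% and 56.2% of NK cell-like cells. Ccl2 was spread over more classes, with 21.5% in C1q macrophage-like cells (with complement C1q genes, Cd163 and Lyve1) and 17.4% in Spp1 macrophage-like cells (with Spp1, Ctsk and Mmp12). Fibroblast-like cells held 15.6% of it, alveolar macrophage-like cells 12.3% and monocyte-like cells 12.2%. Spp1 macrophage-like cells held 67.4% of Pf4 and 40.6% of Ccl7. Without BLM replicate 2, which gave the most cells, these shares of Ccl7 and Ccl2 in Spp1 macrophage-like cells were 21.4% and 11.2%, and those of Ccl2 in fibroblast-like and monocyte-like cells 7.68% and 21.1%.

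**Figure D1:**
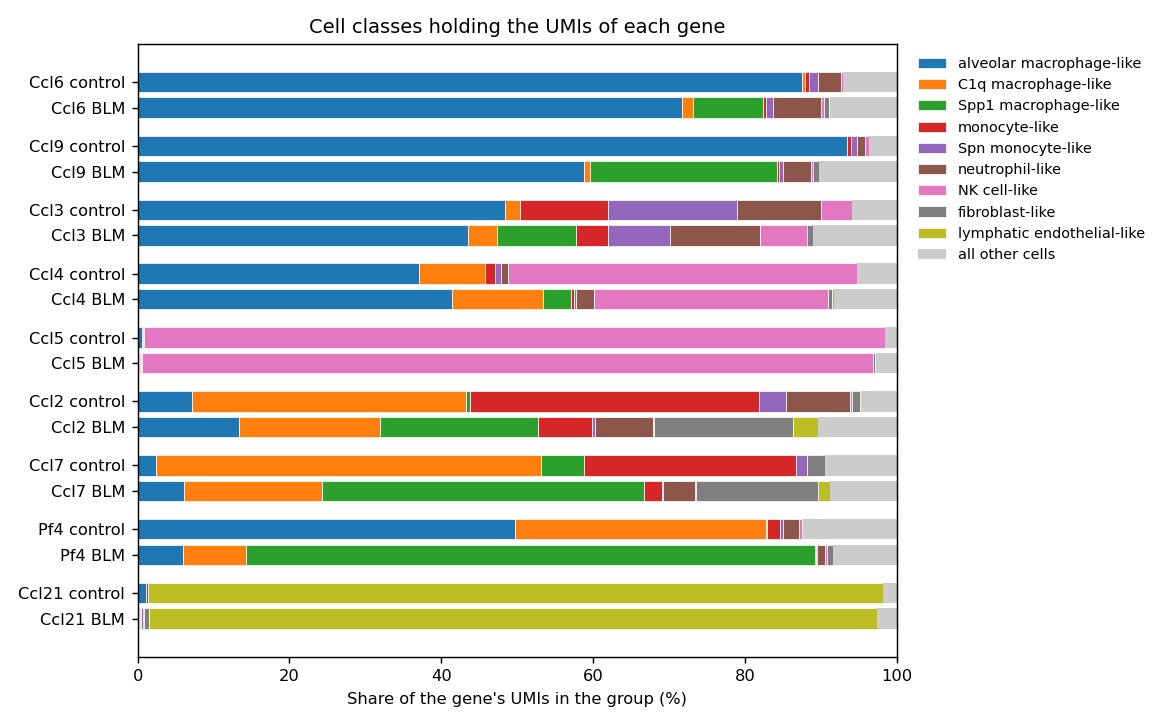
Each bar splits the UMIs of 1 gene in 1 group of 3 rats by cell class, in percent. A set of 9 chosen classes is in colour, and all other cells, cycling cells among them, are in grey. Ccl5 and Ccl21 stayed almost whole in 1 class in both groups, while Spp1 macrophage-like cells held 75.0% of Pf4 UMIs in BLM-treated rats.

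The class that held a gene differed between the groups for some genes and not for others. In control rats, C1q macrophage-like and monocyte-like cells held 36.1% and 38.0% of Ccl2 UMIs. In BLM-treated rats these shares were 18.7% and 7.1%, with 20.7% in Spp1 macrophage-like and 18.4% in fibroblast-like cells. Without BLM replicate 2 the BLM shares of fibroblast-like and monocyte-like cells were 11.4% and 11.8%. For Pf4, alveolar macrophage-like cells held 49.6% in control and 6.0% in BLM-treated rats. Of Ccl9, alveolar macrophage-like cells held 93.4% in control and 58.8% in BLM-treated rats, with Spp1 macrophage-like cells at 24.7% in the latter. Ccl5 stayed with NK cell-like cells (97.6% and 96.2%) and Ccl21 with lymphatic endothelial-like cells (96.7% and 95.8%). The classes also differed in size. Spp1 macrophage-like cells were 0, 0 and 3 cells in the control rats and 164, 595 and 120 in the BLM-treated rats. Alveolar macrophage-like cells were 35.3% ± 3.99 (SD, n = 3) of control cells and 15.5% ± 0.815 (SD, n = 3) of BLM cells.

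With all cells of a rat summed, 4 of the 9 genes increased in BLM-treated rats, Ccl9 decreased, and 4 did not pass the test. Values below are UMIs per 1000000 UMIs (CPM), with control replicates 1 to 3 first. The test was the quasi-likelihood test of edgeR, its p-values were adjusted after Benjamini and Hochberg over every gene in that comparison, and 0.05 was the threshold. In this comparison 17.4% of all genes tested were called. Pf4 stood at 88.0, 55.7 and 76.2 CPM in control and at 633.2, 500.9 and 288.8 CPM in BLM-treated rats. Every BLM-treated rat lay above every control rat, and the log2 fold change was 2.65 ± 0.33 (SE, adjusted p = 0.00262). Ccl7 stood at 11.6, 5.70 and 8.30 CPM against 82.2, 168.9 and 35.0, again without overlap (3.41 ± 0.58, adjusted p = 0.00842). Ccl2 stood at 93.2, 69.9 and 55.2 CPM against 200.6, 328.2 and 155.8 (1.62 ± 0.31, adjusted p = 0.0122), a call lost in 1 of 6 fits that left out 1 rat. These 3 genes did not overlap between the groups, as was so for 36% of all genes tested.

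Ccl4 stood at 186.1, 153.4 and 146.7 CPM in control and at 570.6, 330.0 and 257.3 CPM in BLM-treated rats (1.22 ± 0.30, adjusted p = 0.0284), a call lost in 4 of 6 such fits. Ccl9 was lower in BLM-treated rats, at 516.7, 361.4 and 625.8 CPM against 285.7, 317.5 and 216.6 (-0.93 ± 0.27, adjusted p = 0.0482). The groups did not overlap, but the Ccl9 call was lost in 5 of 6 such fits. Ccl3 (0.68 ± 0.26, adjusted p = 0.117) and Ccl6 (-0.86 ± 0.35, adjusted p = 0.133) did not pass. Ccl5 did not either (0.21 ± 0.45, adjusted p = 0.788). Ccl21 was found with 1 UMI in control replicate 1, and stood at 0.132, 63.0 and 15.03 CPM in control against 101.8, 197.1 and 63.7 CPM in BLM-treated rats (2.33 ± 1.06, adjusted p = 0.176). The groups did not overlap for Ccl21 or for Ccl3, which stood at 562.6, 608.5 and 584.3 CPM against 1202, 1073 and 609.8.

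**Figure D2:**
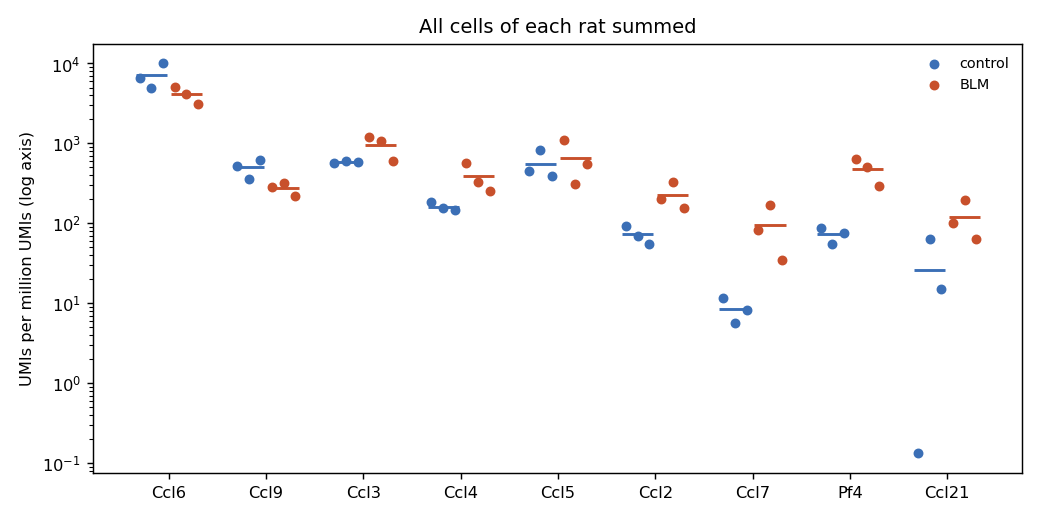
CPM (log axis) of the 9 genes with all cells of a rat summed, 1 point per rat, a line at the mean of 3 rats, blue for control and red for BLM. Ccl2, Ccl3, Ccl4, Ccl7, Ccl21 and Pf4 were higher in every BLM-treated rat than in every control rat, and Ccl9 was lower, while Ccl3 and Ccl21 did not pass the test.

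Among the chemokines that recruit monocytes, Ccl2 rose in alveolar macrophage-like cells and did not pass the test in C1q macrophage-like cells, where its control level was far higher. In alveolar macrophage-like cells Ccl2 stood at 14.7, 6.02 and 6.67 CPM in control and 133.6, 155.6 and 53.5 CPM in BLM-treated rats. The groups lay far apart there, with a log2 fold change of 3.59 ± 0.44 (adjusted p = 6.95e-04), beside 11% of all genes called in this class. In C1q macrophage-like cells Ccl2 stood at 1912, 1195 and 2003 CPM in control and 1863, 1894 and 1330 CPM in BLM-treated rats. The 2 groups overlapped (-0.01 ± 0.22, adjusted p = 0.996), and 1.17% of all genes were called in this class, with 0 of the 6 members tested among them. DESeq2 also called 0, and 3 members had an unadjusted p under 0.05. Over all genes, 33 were called in C1q macrophage-like cells and 376 had an unadjusted p under 0.05. After thinning to 500 UMIs, Ccl2 was found in 0.412% of control and 4.17% of BLM alveolar macrophage-like cells, and in 36.3% and 37.7% of C1q macrophage-like cells.

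Ccl7, the neighbour of Ccl2, was nearly absent from alveolar macrophage-like cells of control rats, with 2, 0 and 3 UMIs. Those of BLM-treated rats held 34, 173 and 23 UMIs. The levels were 0.489, 0 and 0.417 CPM against 12.7, 42.7 and 9.18 (log2 fold change 5.70 ± 0.83, adjusted p = 0.00192), and the fitted fold change rests on the few control UMIs. In C1q macrophage-like cells Ccl7 stood at 379.5, 163.6 and 352.5 CPM in control and 730.5, 1052 and 215.7 CPM in BLM-treated rats, with BLM replicate 3 inside the control range (1.12 ± 0.42, adjusted p = 0.247). Spp1 macrophage-like cells of BLM-treated rats held 189.2, 544.4 and 154.5 CPM of Ccl7 and 351.0, 494.8 and 403.2 CPM of Ccl2, and could not be tested because control rats had 3 such cells. Of the BLM alveolar macrophage-like cells with Ccl7, 57.0% also held Ccl2, against 15.7% of all cells of that class and group. Among C1q macrophage-like cells with Ccl7, Ccl2 was found in all 21 control cells and in 88.9% of the BLM cells. Over all C1q macrophage-like cells Ccl2 was found in 48.1% of control and 52.3% of BLM cells.

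Outside macrophages, Ccl2 in monocyte-like cells stood at 745.7, 714.5 and 651.9 CPM in control and 1295, 857.8 and 1312 CPM in BLM-treated rats. The groups did not overlap, but the call was missed (0.70 ± 0.18, adjusted p = 0.0951), beside 0.343% of genes called and 14.9% that did not overlap. Fibroblast-like cells of BLM-treated rats held 344.5, 464.6 and 193.7 CPM of Ccl2 and 285.1, 152.6 and 51.7 CPM of Ccl7. Control rats had 3, 15 and 29 fibroblast-like cells, the first was left out, and neither gene passed the test (adjusted p = 0.258 and 0.412), beside 1.23% of genes called. On simulated data for this class, a log2 change of 2 was found for only 29.9% of changed genes, so a missed call does not show an unchanged gene.

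**Figure D3:**
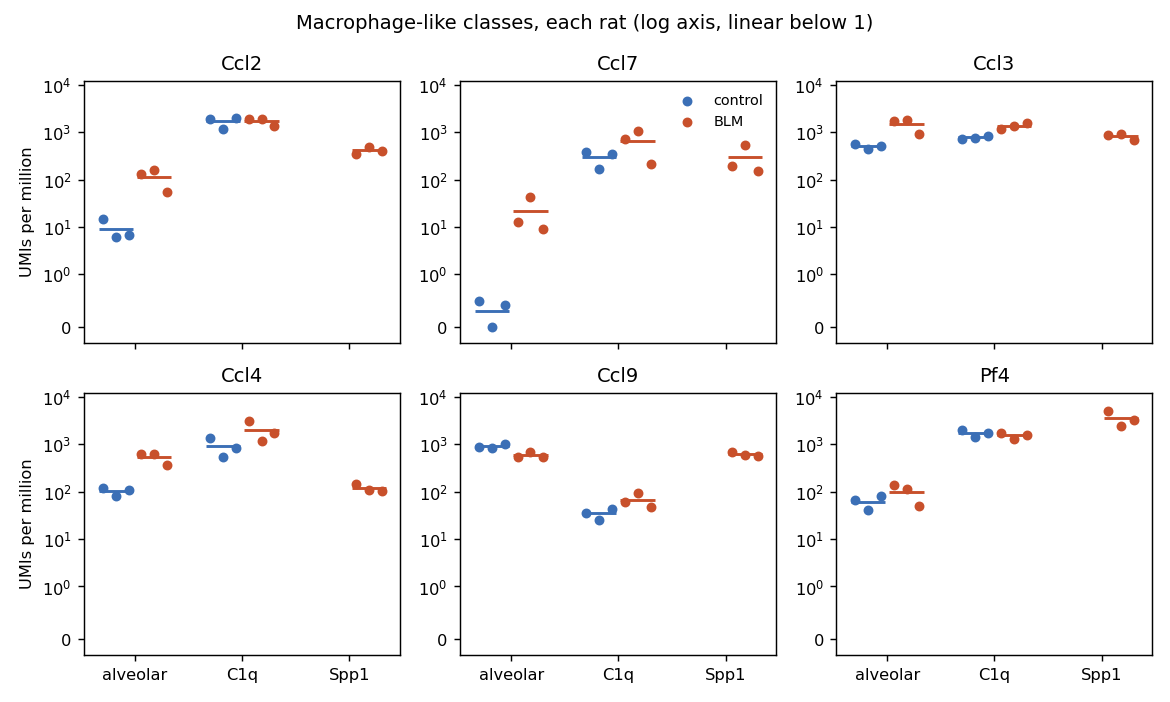
CPM of 6 genes in alveolar, C1q and Spp1 macrophage-like cells on a log axis that is linear below 1, with 1 point per rat that had at least 10 cells and a line at the mean. In alveolar macrophage-like cells Ccl2, Ccl7, Ccl3 and Ccl4 of all 3 BLM-treated rats lay above the control rats and Ccl9 below them, and Spp1 macrophage-like cells are shown for BLM-treated rats only.

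Whether the effect differed between alveolar and C1q macrophage-like cells was tested directly, with the rat as a block, and 2.94% of all genes were called. The change of Ccl2 was larger in alveolar macrophage-like cells by 3.51 ± 0.27 on the log2 scale (adjusted p = 4.35e-19), that of Ccl7 by 4.48 ± 0.50 (adjusted p = 1.30e-11) and that of Ccl4 by 1.18 ± 0.25 (adjusted p = 8.00e-04). The change of Ccl9 was lower by -1.69 ± 0.44 (adjusted p = 0.0120). Few C1q macrophage-like cells held Ccl9, 10 of 210 in control and 30 of 522 in BLM-treated rats. Thinned to 500 UMIs these shares were 0.641% and 2.22% (means of 3 rats), beside 1.74% and 0.434% of B cell-like cells. The part of free RNA in the Ccl9 difference was not tested. The differences of Ccl3 (0.56, adjusted p = 0.287), Pf4 (0.68, adjusted p = 0.137) and Ccl6 (-0.51, adjusted p = 0.362) did not pass. The calls of Ccl4 and Ccl9 were each lost in 2 of 6 fits that left out 1 rat and under DESeq2, while those of Ccl2 and Ccl7 stayed in all of these. Marker levels moved within the classes as well. In alveolar macrophage-like cells, 5 measured monocyte markers summed to 103.1 to 153.9 CPM in control and 463.0 to 495.0 CPM in BLM-treated rats, and the 9 C1q macrophage markers to 156.1 to 245.6 and 327.4 to 336.2 CPM. Their part in the Ccl2 and Ccl7 values was not tested.

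Ccl3 and Ccl4, which recruit macrophages and lymphocytes, rose in alveolar macrophage-like cells. Ccl3 stood at 562.6, 444.4 and 511.4 CPM in control and 1752, 1805 and 919.1 CPM in BLM-treated rats (1.55 ± 0.25, adjusted p = 0.00355). Ccl4 stood at 120.9, 80.3 and 109.7 CPM in control and 620.8, 629.4 and 356.6 CPM in BLM-treated rats (2.34 ± 0.25, adjusted p = 3.41e-04). No BLM-treated rat overlapped a control rat for either gene, as was so for 30.9% of genes in this class. The share of Ccl3-positive alveolar macrophage-like cells that also held Ccl4 was 21.4% in control and 43.9% in BLM-treated rats, with median depths of 2997 and 4198 UMIs per cell. Over all cells of the class Ccl4 was found in 13.5% and 35.2%. Thinned to 500 UMIs, Ccl3 was found in 16.9% of control and 37.1% of BLM cells and Ccl4 in 3.26% and 14.3%.

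Clusters were then fitted alone, an alternative chosen after the values of the class were seen, because control and BLM cells lay in different clusters. In cluster 0 Ccl3 rose by 1.24 ± 0.21 and Ccl4 by 1.84 ± 0.26 (adjusted p = 9.18e-04 and 1.13e-04), and in cluster 1 by 1.33 ± 0.18 and 1.71 ± 0.25 (adjusted p = 1.22e-04 and 2.43e-04). Both also passed in cluster 30, led by the replication gene Mcm5, where 2 BLM-treated rats had enough cells. In clusters 5 and 8, where 2 control rats had enough cells, neither passed: Ccl3 gave 0.29 ± 0.28 and -0.16 ± 0.18, and Ccl4 0.89 ± 0.40 and 0.57 ± 0.17. Cluster 8 held 2229 and 2217 CPM of Ccl3 in control replicates 1 and 3, against 324.7 and 284.8 CPM in cluster 0 of the same rats. Ccl2 passed in cluster 8 (4.48 ± 0.67, adjusted p = 0.00156) and not in cluster 5 (1.25 ± 0.58, adjusted p = 0.292). Its fold change in cluster 8 rests on 4 and 1 UMIs in control replicates 1 and 3, against 318, 471 and 81 UMIs in BLM-treated rats. Of all genes tested, 2.62% were called in cluster 0, 6.51% in cluster 1, 1.21% in cluster 30, 3.58% in cluster 5 and 4.25% in cluster 8.

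Most UMIs of Ccl6 and Ccl9, the rodent ligands of Ccr1, lay in alveolar macrophage-like cells, where only Ccl9 passed the test between groups. Ccl6 was not particular to this class. Thinned to 500 UMIs, it was found in 91.7% of control alveolar macrophage-like, 89.9% of neutrophil-like and 87.7% of cycling cells (means of 3 rats). In alveolar macrophage-like cells Ccl6 stood at 11067, 10352 and 14812 CPM in control and 11883, 11142 and 8398 CPM in BLM-treated rats, with overlap (-0.23 ± 0.20, adjusted p = 0.539). It was found in 96.9% of control and 96.5% of BLM cells of the class. Ccl9 stood at 893.4, 847.9 and 994.3 CPM in control and 545.8, 680.8 and 541.0 CPM in BLM-treated rats. All 3 BLM-treated rats lay below the control rats (-0.65 ± 0.15, adjusted p = 0.0195), and the call was lost in 3 of 6 fits that left out 1 rat. Of the cells with Ccl9, 99.1% of control and 98.7% of BLM cells also held Ccl6.

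Within single clusters the decrease of Ccl9 was at least as large as in the whole class. The log2 fold change was -1.73 ± 0.17 in cluster 1 (adjusted p = 2.52e-06), -2.20 ± 0.14 in cluster 5 (adjusted p = 6.31e-07) and -1.54 ± 0.16 in cluster 8 (adjusted p = 8.99e-05). It was -0.75 ± 0.28 in cluster 0, -1.42 ± 0.50 in cluster 17 and -1.15 ± 0.37 in cluster 30, none of which passed. Cluster 8 held the most Ccl9 of the 6 clusters in every rat with at least 10 cells there, at 2927 and 2018 CPM in control replicates 1 and 3 and 716.4, 934.5 and 943.8 CPM in the BLM-treated rats. It held 97 of 3791 control and 797 of 2288 BLM alveolar macrophage-like cells. The log2 fold changes of Ccl6 ran from -0.52 to -0.03 over the 6 clusters, with adjusted p between 0.0738 and 0.958.

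**Figure D4:**
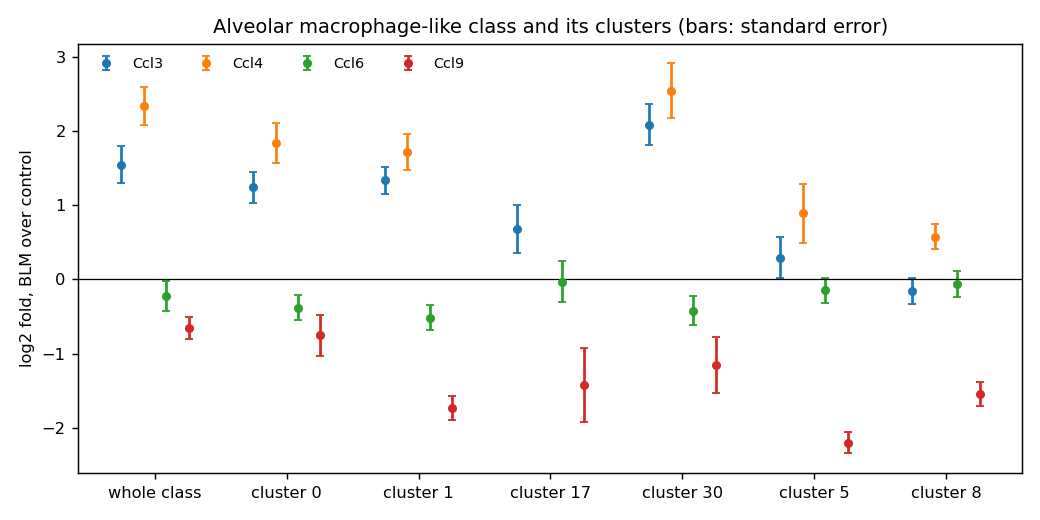
Log2 fold change of BLM over control with its standard error for Ccl3, Ccl4, Ccl6 and Ccl9, in the alveolar macrophage-like class and in each of its 6 clusters. Ccl9 lay below 0 in every cluster, Ccl3 and Ccl4 lay highest in clusters 0, 1 and 30, and Ccl4 has no value in cluster 17, where it failed the filter on low counts.

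Ccl6 was also found outside macrophages. In neutrophil-like cells it stood at 7795, 8116 and 12168 CPM in control and 10512, 8351 and 7385 CPM in BLM-treated rats (-0.24 ± 0.22, adjusted p = 0.457), and per rat 79.7% to 92.6% of these cells held it. Ccl9 was found in only 0.461% to 11.7% of the same cells. BLM replicate 2 gave 154 of the 171 cells of a class with hemoglobin genes, and 49.4% of those 154 cells held Ccl3. The 10 alveolar macrophage markers summed to 5332 CPM there, and the origin of these UMIs was not tested.

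Ccl5 was a gene of NK cell-like cells in both groups. It stood at 12856, 19283 and 14833 CPM in control and 19869, 13657 and 20458 CPM in BLM-treated rats (0.23 ± 0.19, adjusted p = 0.813), and per rat 85.4% to 93.6% of these cells held it. In T cell-like cells Ccl5 stood between 24.4 and 300.9 CPM. With all cells summed, where BLM replicate 2 had the lowest and BLM replicate 1 the highest Ccl5 level of all rats (307.4 and 1104 CPM), NK cell-like cells were 4.18% and 9.65% of the cells. Fewer NK cells and less Ccl5 RNA per cell cannot be told apart in such sums.

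The NK cell-like class had 3 clusters. Cluster 15 was led by Gzma, Gzmbl2 and Gzmk and held 0 CPM of Cd3e in every rat, with Ccl5 between 18015 and 27776 CPM. Cluster 22 held Cd3e, a subunit of the T cell receptor complex, at 514.1 to 900.9 CPM, so that the class holds a T cell marker, and Ccl5 there was 7522 to 18177 CPM. Cluster 34 held Mki67, a gene of dividing cells, 5743 to 12669 CPM of Ccl5, and Cd3e at 82.3 to 525.1 CPM. The Ccl5 levels of cluster 15 lay above those of cluster 34 in every rat.

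Ccl3 was the only one of the 5 tested members that passed in NK cell-like cells, where only 2 of all genes were called (0.0409%) and 378 had an unadjusted p under 0.05. It stood at 722.6, 815.1 and 719.2 CPM in control and 2347, 1943 and 1353 CPM in BLM-treated rats, with no overlap (1.37 ± 0.19, adjusted p = 0.00606). The call was lost without control replicate 1, where the adjusted p was 0.213, within a range of 5.30e-04 to 0.213 over the fits that left out 1 rat. Ccl3 was higher in every BLM-treated than in every control rat in each of the 3 clusters. Ccl4 stood at 2414, 2254 and 2352 CPM in control and 4636, 3027 and 2994 CPM in BLM-treated rats, also without overlap, and did not pass (0.64 ± 0.18, adjusted p = 0.278). Of all genes tested in this class, 13.1% did not overlap. In NK cell-like cells with Ccl3, Ccl4 was found in 76.1% of control and 81.6% of BLM cells. Over all NK cell-like cells these shares were 57.8% and 69.0%.

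**Figure D5:**
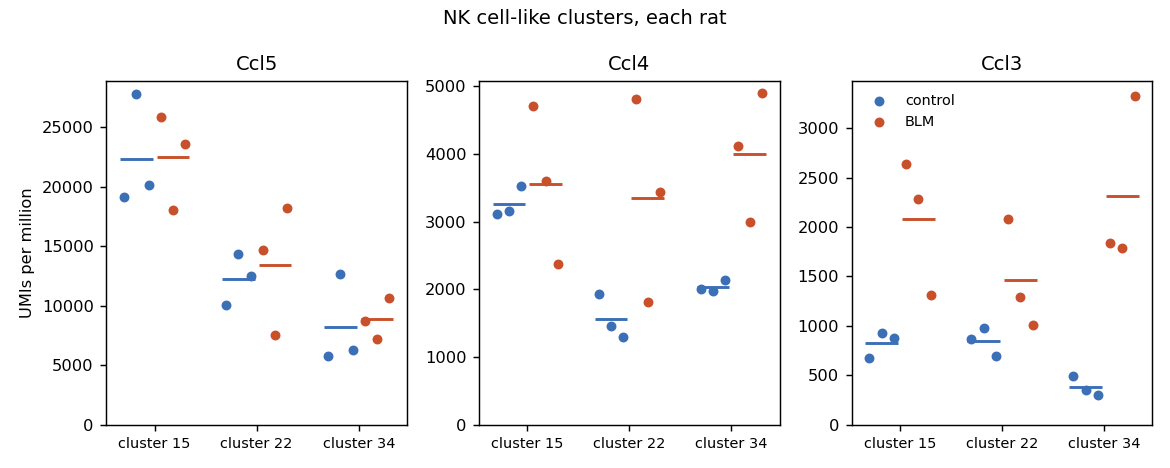
CPM of Ccl5, Ccl4 and Ccl3 in the 3 NK cell-like clusters, 1 point per rat and a line at the mean of 3 rats, blue for control and red for BLM. The BLM points of Ccl3 lie above the control points in each cluster, while those of Ccl5 overlap, and BLM replicate 3 had 8 cells in cluster 34.

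Pf4 rose in the sum of all macrophage-like cells but did not pass in alveolar or in C1q macrophage-like cells. With the 3 macrophage-like classes summed, where 14.3% of all genes were called, Pf4 stood at 129.2, 112.5 and 106.1 CPM in control and 1317, 1015 and 684.2 CPM in BLM-treated rats (3.12 ± 0.25, adjusted p = 8.15e-05). In C1q macrophage-like cells it stood at 1998, 1447 and 1771 CPM in control and 1769, 1273 and 1557 CPM in BLM-treated rats, with overlap (-0.18 ± 0.20, adjusted p = 0.772). In alveolar macrophage-like cells it stood at 65.3, 41.5 and 79.1 CPM in control and 137.0, 114.8 and 49.1 CPM in BLM-treated rats, again with overlap (0.63 ± 0.35, adjusted p = 0.294). Spp1 macrophage-like cells of BLM-treated rats held 4999, 2420 and 3224 CPM, in 88.4%, 78.7% and 75.8% of their cells. All of them thus lay above the 1273 to 1998 CPM of C1q macrophage-like cells.

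Platelet RNA, the classical source of Pf4, was looked for with the 3 measured of 10 listed platelet or megakaryocyte markers. The other listed markers, Ppbp and Gp9 among them, were not measured. Itga2b, Treml1 and Clec1b had 90, 51 and 48 UMIs in all cells together, against 17773 UMIs of Pf4. In Spp1 macrophage-like cells of BLM-treated rats these 3 summed to 2.40 to 9.42 CPM, and in C1q macrophage-like cells they were at 0 in 5 of 6 rats. The part of platelet RNA in the Pf4 values was not tested.

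Ccl21, which marks lymphatic endothelium, was found in very few cells, 163 in all or 0.638% of cells. The class of 105 lymphatic endothelial-like cells was led by Mmrn1, Reln, Lyve1 and Flt4. It held 0, 4 and 6 control cells and 17, 67 and 11 BLM cells. Ccl21 stood at 58881 and 28091 CPM in the 4 and 6 control cells, and at 19234, 20223 and 22375 CPM in BLM-treated rats. With under 10 cells per control rat no test was made. Endothelial-like cells of the blood vessels held 0 UMIs of Ccl21 in 220 control cells, which allows a share of up to 1.36% of cells with a UMI, and 7 UMIs in 1676 BLM cells.

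In 3 further classes members passed the test while markers of other cells moved with the group. In cycling cells, where 7.49% of genes were called, 4 of 6 members rose. Ccl3 rose by 2.12 ± 0.21 (adjusted p = 8.05e-08), Ccl4 by 3.28 ± 0.29 (adjusted p = 2.53e-08) and Pf4 by 3.71 ± 0.32 (adjusted p = 1.71e-08). Ccl2 had 3 UMIs in control and 173 in BLM cycling cells, a ratio per UMI of 89.7 with a 95% counting interval of 30.2 to 439.2. BLM replicate 2 gave 159 of the 173 UMIs, and without it the ratio was 17.6 (4.91 to 95.4). The Spp1 macrophage markers summed to 5135 to 6487 CPM in control and 7757 to 12245 CPM in BLM cycling cells. What part these had in the changes was not tested.

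In neutrophil-like cells, where 19% of genes were called, Ccl2 rose from 371.6, 258.8 and 189.2 CPM to 560.1, 737.2 and 508.4 CPM, without overlap, as was so for 39% of genes (1.03 ± 0.28, adjusted p = 0.0218). Ccl4 rose from 16.9, 143.8 and 44.9 CPM to 410.2, 337.3 and 80.5 CPM (1.96 ± 0.58, adjusted p = 0.0299), with BLM replicate 3 inside the control range. These calls were lost in 3 and 4 of 6 fits that left out 1 rat. The 8 neutrophil markers summed to 36711 to 45731 CPM in control and only 9442 to 20539 CPM in BLM-treated rats, and the 10 alveolar macrophage markers to 1129 to 1988 and 4068 to 5151 CPM. Cluster 7 held 556 control and 398 BLM cells of the class, and cluster 23 held 162 and 359. Whether the marker changes had a part in the Ccl2 and Ccl4 values was not tested.

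In smooth muscle or pericyte-like cells, where 11.3% of genes were called, 2 of 6 members passed. Pf4 had 0 UMIs in the 310 control cells, which allows a share of up to 0.968% of cells with a UMI. It had 94 UMIs in the 869 BLM cells, a ratio per UMI of 11.9 against a floor of 3 counts over the control group. With the counting error of the BLM UMIs the lower 95% limit of the ratio was 9.53. It was found in 3.43%, 5.59% and 5.04% of cells of the BLM-treated rats, against 1.07%, 5.45% and 0% of their B cell-like cells. Thinned to 500 UMIs these shares were 1.73% and 1.77% (means of 3 rats), with 1.32% to 2.25% and 0% to 4.89% per rat. Ccl6 rose by 1.31 ± 0.37 (adjusted p = 0.0221) but was found in 7.19% to 13.3% of BLM and 10.2% to 19.8% of control cells. B cell-like cells held it in 2.11% to 13.2% and 9.01% to 15.4% of cells, and the part of free RNA was not tested. Cluster 25 held 223 of the 310 control cells and cluster 16 held 670 of the 869 BLM cells. The 10 alveolar macrophage markers summed to 127.8 to 218.3 CPM in control and 296.2 to 666.7 CPM in BLM-treated rats, and their part was not tested.

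In 14 classes no member passed by edgeR, over 51 tests of which 18 had an unadjusted p under 0.05. DESeq2 called 1 member in AT2-like cells and 1 in unnamed cluster 2. No share over all genes was set beside the unadjusted or the DESeq2 count, so neither can be read as an excess. The 14 classes were C1q macrophage, monocyte and fibroblast-like cells and 11 further groups. For each of the 11 the share of all genes called by edgeR is given. It was 0% in B cell-like and basophil or mast-like cells, 1.31% in AT2-like, 0.816% in Spn monocyte-like and 1.18% in T cell-like cells. It was 0.0808% in club-like, 0.0498% in dendritic-like and 0.516% in plasmacytoid dendritic-like cells. It was 6.83% in endothelial-like and 2.2% in mesothelial-like cells, and 2.44% in unnamed cluster 2.

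Of other CC chemokine genes, 8 of 11 listed could be tested with all cells summed, and 3 increased and 1 decreased, beside 17.4% of all genes called. Their median log2 fold change was 0.85, against -0.01 over all genes. Ccl11, an eosinophil chemokine, rose from 3.96, 10.6 and 0.0822 CPM to 41.9, 100.2 and 32.3 CPM (3.90 ± 0.93, adjusted p = 0.0267). Within fibroblast-like cells Ccl11 gave 0.45 ± 0.79 (adjusted p = 0.855). Ccl24, another ligand of Ccr3, rose by 3.02 ± 0.76 (adjusted p = 0.0309) and Ccl19, a ligand of Ccr7 like Ccl21, by 2.39 ± 0.60 (adjusted p = 0.0308). Ccl24 gave 3.32 ± 0.79 in the sum of all macrophage-like cells (adjusted p = 0.0212). Alone, alveolar and C1q macrophage-like cells gave 0.43 ± 0.44 and -0.61 ± 0.38 (adjusted p = 0.6065 and 0.564). Ccl19 gave 0.01 ± 1.49 in fibroblast-like and 1.09 ± 0.42 in smooth muscle or pericyte-like cells (adjusted p = 0.999 and 0.106). Ccl20, the ligand of Ccr6, decreased by -2.10 ± 0.51 (adjusted p = 0.0286). Within AT2-like cells Ccl20 gave -1.42 ± 0.46 (adjusted p = 0.189). Fibroblast-like cells were 0.435% of control and 6.30% of BLM cells (means of 3 rats), and AT2-like cells 7.12% and 0.718%. The part of class sizes in these sums was not tested.

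Of 12 receptor genes, 9 were tested with all cells summed, and Ccr9 alone passed (-2.28 ± 0.53, adjusted p = 0.0237), beside the same 17.4% of all genes. Their median was 0.02. Within plasmacytoid dendritic-like cells Ccr9 gave -0.33 ± 0.32 (adjusted p = 0.836). These were 1.87% of control and 0.604% of BLM cells (means of 3 rats), and the part of their number was not tested. In alveolar macrophage-like cells Ccrl2, a receptor that binds chemerin, rose by 2.23 ± 0.37 (adjusted p = 0.00404). In T cell-like cells Ccr6 rose (1.66 ± 0.37, adjusted p = 0.0320), and in endothelial-like cells Ackr4, a scavenger of Ccl21 and Ccl19, decreased (-2.53 ± 0.52, adjusted p = 0.00610). Of the T cell-like class, cluster 20 held 55, 33 and 47 control and 137, 212 and 228 BLM cells. Cluster 3 of this class held 184, 128 and 149 control and 190, 551 and 87 BLM cells. The part of these clusters in the Ccr6 value was not tested.

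Several chemokine genes are transcribed in response to NF-kB, and 6 of 10 genes of an NF-kB response list were tested in alveolar macrophage-like cells. Of these, 4 rose and none decreased, beside 11% of all genes called, with a median log2 fold change of 1.06 against -0.01 over all genes. They were Il1b (2.74 ± 0.30, adjusted p = 3.54e-04), Icam1 (2.44 ± 0.16, adjusted p = 2.47e-05), Birc3 (1.61 ± 0.36, adjusted p = 0.0177) and Nfkb1 (0.51 ± 0.13, adjusted p = 0.0272). In C1q macrophage-like cells the 5 tested genes of this list had a median of 0.12, and edgeR called none of them. With all cells summed Icam1 alone passed of 6 tested (0.70 ± 0.15, adjusted p = 0.0167), beside 17.4% of all genes. In neutrophil-like cells Icam1 rose (1.63 ± 0.28, adjusted p = 0.00296) while Il1b and Birc3 decreased (-1.12 ± 0.24 and -1.02 ± 0.32, adjusted p = 0.00879 and 0.0385). In T cell-like cells Nfkb1, Il1b and Birc3 rose (1.03 ± 0.17, 1.99 ± 0.39 and 0.96 ± 0.23, adjusted p = 0.00612, 0.0136 and 0.0473). In cycling cells Icam1, Il1b and Ccrl2 rose by 3.34, 3.40 and 2.34, and in unnamed cluster 2 Ccr7, the receptor of Ccl21, rose by 1.33 ± 0.32 (adjusted p = 0.0464).

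The genes whose pattern over 24 named classes was most like that of each member are given as a description, by Pearson r of log2(mean CPM + 1) among 12406 genes. For Ccl6 these were AC114233.2, Pla2g2d and Naaa (r = 0.969, 0.959 and 0.940), and for Ccl9 Edil3, Pla2g2d and Ccl6 (0.906, 0.905 and 0.895). For Ccl3 they were Osm, Lcp2 and Lst1 (0.903, 0.896 and 0.895) and for Ccl4 Dusp2, Lcp2 and Laptm5 (0.899, 0.853 and 0.853). Ccl5 was most like the cytotoxic genes Gzmk, Klrd1 and Gzma (0.902, 0.875 and 0.873), and Ccl21 like Mmrn1, Meox1 and Reln (0.926, 0.882 and 0.827). Ccl2 was nearest to Hgf, Ccrl2 and Rab32 (0.859, 0.823 and 0.809), and Ccl7 to Ccl24, Itsn1 and Ccl2 (0.833, 0.770 and 0.767). For Pf4 the nearest were Cux1, AABR07027569.3 and Tgfbr1, with lower values of 0.833, 0.802 and 0.799.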

How the data were processed

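The deposited table held whole UMI counts per gene and cell, not normalized, which the authors made from reads sequenced on an Illumina NovaSeq. The submitters' notes name the build mm9, which is a mouse build, and no coordinates were taken from it; no source used here gives the aligner, counting program or cell filter. A gene's values lay 1 field right of its name, checked on the most abundant genes. Cell names end in letters that were assigned to control and BLM because their cell totals equal the study's group totals. All cells were kept and no doublet caller was run. An alternative dropped the 5% of cells with most UMIs in each rat.

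Counts were scaled to 10000 per cell, and cells were clustered on 2000 variable genes, 30 principal components and 15 neighbours with the Leiden algorithm at resolution 2.0 (scanpy 1.11.5, leidenalg 0.10.2). A cluster was named where at least 3 markers of a list stood above the median cluster. For each rat and class the UMIs were added up, where at least 10 cells per rat and 2 rats per group were found, and tested with edgeR 4.0.16 (filterByExpr, TMM, quasi-likelihood test). Adjusted p under 0.05 was called. Fits were tested on simulated data with genes changed by a known amount. A log2 change of 1 was found for 35.7% of changed genes with all cells summed. It was found for 63.9% in alveolar macrophage-like, 51.1% in C1q macrophage-like, 60.2% in NK cell-like and 4.26% in fibroblast-like cells. For a log2 change of 2 these shares were 89.4%, 98.9%, 98.8%, 97.8% and 29.9%. DESeq2 1.42.0, other scalings, filters, clusterings and left-out rats were alternatives. Named were the 9 genes in classes that held at least 1% of their UMIs or where they passed, members of 4 lists that passed, and the 3 genes most like each member. None of the 9 listed immediate early genes was tested, and they are not analysed here. The members and lists were chosen with earlier results of these data known. Intervals and floors cover counting error only. A result for 1 gene of the receptor list is not reported here.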

Additional observations from a re-analysis of the deposited data

Results flagged for a closer look

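The effect of BLM differed between alveolar and C1q macrophage-like cells for 4 of 8 members tested, by the interaction test of edgeR with the rat as a block, beside 2.94% of all genes called. The difference of the log2 effects, alveolar minus C1q, was 3.51 for Ccl2, 4.48 for Ccl7, 1.18 for Ccl4 and -1.69 for Ccl9. Ccl2, Ccl7 and Ccl4 rose and Ccl9 decreased in alveolar macrophage-like cells, and the control level of Ccl2 in C1q macrophage-like cells was 1195 to 2003 CPM, against 6.02 to 14.7 CPM in alveolar macrophage-like cells. The calls of Ccl4 and Ccl9 were each lost in 2 of 6 fits that left out 1 rat (highest adjusted p = 0.204 and 0.217) and under DESeq2. Ccl9 was found in only 10 of 210 control and 30 of 522 BLM C1q macrophage-like cells. No cause of these differences was tested.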

How the results depend on the processing

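Of the log2 fold changes that passed, 346 of the alternative values kept direction and call, 59 lost the call and 1 reversed, that of Ccl3 in cluster 8 alone (-0.16). Of those that had not passed, 14 passed under an alternative and 11 reversed. Ccl2 in C1q macrophage-like cells gave 0.12 with no filter on low counts and 0.11 without the 5% of cells with most UMIs, and from -0.22 to 0.14 without 1 rat. Without 1 rat, Ccl6 in NK cell-like cells ran from -0.57 to 0.54, and Ccl5 with all cells summed from -0.42 to 0.54. Pf4 gave -0.28 and -1.28 in clusters 1 and 5 alone, the latter called. The fits of single clusters were chosen after seeing the data. They called 2 members in cluster 0, 3 in cluster 1, 2 in cluster 5, 2 in cluster 8, 0 in cluster 17 and 2 in cluster 30, against 5 in the whole class, and fewer cells enter them.

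Without 1 rat, 2 to 5 members were called with all cells summed (5 with all rats, 2 without control replicate 3 and 3 without control replicate 1 or BLM replicate 2). Over the cell classes this was 11 to 22 (14 with all rats, 22 without BLM replicate 3), and for the difference between macrophage-like classes 2 to 6 (4 with all rats, 2 without control replicate 1 or BLM replicate 2). In single classes it was 0 to 1 in C1q macrophage-like (0 with all), 0 to 3 in neutrophil-like (2 with all), 0 to 1 in NK cell-like (1 with all) and 1 to 3 in smooth muscle or pericyte-like cells (2 with all). With no filter on low counts, 43 members were called over the classes, with 3 in C1q macrophage-like, 4 in neutrophil-like and 3 in NK cell-like cells. DESeq2 called 2 for the difference, 1 in neutrophil-like and 1 in smooth muscle or pericyte-like cells. Without the 5% of cells with most UMIs, 1 was called in C1q macrophage-like and 0 in smooth muscle or pericyte-like cells, and at resolution 1.0 1 in neutrophil-like cells. The causes were not tested. Over all genes, 2324 were called with all cells summed and 1181 to 2328 without 1 rat, and 1020 in alveolar macrophage-like cells and 504 to 1290 without 1 rat. In C1q macrophage-like cells it was 33, with 113 under no filter, 56 under the block and 13 to 42 without 1 rat, and in NK cell-like cells 2, with 50, 0 and 0 to 5.

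Rats of both groups share the replicate numbers 1 to 3, and the labels name no batch. With all cells summed, the deviations of same-numbered rats correlated at 0.102, -0.0587 and -0.127. With 3 rats per group these values cannot show whether same-numbered rats shared a batch. With the replicate block, 4 members were called with all cells summed, 2 in C1q macrophage-like, 0 in neutrophil-like, 0 in NK cell-like and 1 in smooth muscle or pericyte-like cells, and Ccl2 in C1q macrophage-like cells was 0.0098. Few cells of control fibroblast, lymphatic endothelial and Spp1 macrophage-like kinds limited what could be tested.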
